A study of Caenorhabditis elegans with 6 samples.

Results

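Alpha and beta tubulin are the paired subunits of microtubules, and Caenorhabditis elegans makes each from a family of genes. The genes described here are the alpha tubulins tba-1, tba-2, tba-4, tba-9 and mec-12 and the beta tubulins tbb-1, tbb-2, tbb-4 and mec-7. They were chosen by name, with no rule on their values but with earlier results of these data known. All 9 are among the 12798 genes of the deposited table, with 29 of its 53267 merged exons. RNA of whole worms was measured in 6 libraries of polyA-selected RNA, 1 per condition, so no difference between conditions has a replicate check and no test between conditions was made.

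The gk165 (L2) library came from L2 larvae with the genotype sdhb-1(gk165), a deletion in the gene of the iron-sulphur subunit of succinate dehydrogenase that stops development at L2. Per the study, the deletion also takes away part of the neighbouring gene cup-15, from its first exon into its second. The R244H and WTR genotypes include the same deletion. The controls of gk165 (L2) were WT (L2) and WT (L3), wild-type N2 larvae. The R244H (L4) library came from L4 larvae labelled sdhb-1(gk165)/mIn1;R244H, that is, with the balancer mIn1, which bears mIs14 (myo-2::gfp and pes-10::gfp) and dpy-10(e128), beside the deletion, and a point-mutant sdhb-1 transgene. The strain list of the methods gives the same balanced genotype. The study describes R244H animals as point mutants on the deletion background that were balanced for propagation, so whether a wild-type copy was present in the sequenced worms is not settled here. Its controls were WTR (L4), labelled sdhb-1(gk165);WTR, with a wild-type sdhb-1 transgene, and WT (L4). Both transgenes are single-copy X chromosome insertions driven by the sdhb-1 promoter and carry unc-119(+), with unc-119(ed3) listed as uncertain in both strains. All worms were grown on OP50 bacteria at 20°C, R244H adults are sterile and develop late, and each library is a pool of whole worms.

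Microtubules are built from heterodimers of alpha and beta tubulin, and the isotypes differ mostly in their acidic tails, which carry modifications and bind motors. In the worm tba-1, tba-2, tbb-1 and tbb-2 supply most of the microtubules of the germline, the early embryo and many somatic cells. tba-4 is a broadly expressed somatic alpha tubulin. mec-12 and mec-7 form the large-diameter microtubules of the touch receptor neurons, and mec-12 is also made in other neurons. tba-9 and tbb-4 are known from ciliated sensory neurons.

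The libraries were shallow, with 188742 to 867446 reads on the listed exons, and a gene with no read in a library could still have held up to 3 reads, taken here as the floor. Levels are given as RPKM, reads scaled to the length of the listed exons in kilobases and to the library size, from the reads pooled over a gene's listed exons. Intervals are exact 95% intervals that cover counting error only. The targeted gene sdhb-1 had 5 reads and 15.2 RPKM in gk165 (L2), against 115.8 RPKM in WT (L2) and 214 RPKM in WT (L3). It had 146 RPKM in R244H (L4), against 70.9 RPKM in WTR (L4) and 174 RPKM in WT (L4).

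The gk165 (L2) library stood apart in where its reads lay along genes. Over 785 genes with at least 3 listed exons and at least 20 reads in every library, the exon nearest the 3' end held a median of 55.1% of a gene's reads in gk165 (L2), against WT (L2) with 39.1% and WT (L3) with 34.3%. The medians were 26.9% in R244H (L4), against 30.0% in WTR (L4) and 29.4% in WT (L4). The exon nearest the 5' end held 2.13% in gk165 (L2), against WT (L2) with 4.35% and WT (L3) with 4.71%. The part of this 3' weighting in the gk165 (L2) levels was not tested, so the gk165 (L2) ratios of the main members and the counts of each gene list are given over all listed exons and again over the 3' exon alone.

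The same weighting was seen exon by exon in the tubulins. tba-1 lies on the minus strand of chromosome I (WBcel235), and its listed exons are the second to the fourth of 4. The fourth, at 9785778 to 9786448, holds the end of the coding sequence and the 3' UTR. It took 89.2% of the tba-1 reads in gk165 (L2), with an interval of 83.3 to 93.6%, against WT (L2) with 61.4% and WT (L3) with 56.2%. At exon level tba-1 had 7.8, 97.3 and 761 RPKM from the second to the fourth exon in gk165 (L2), against 249, 414 and 741 RPKM in WT (L2). The gk165 (L2) level therefore matched that of WT (L2) only at the 3' end.

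tba-2 is also on the minus strand of chromosome I, and its 3 exons are all listed. The first, at 12965571 to 12966876, holds 693 bp of coding sequence, 189 bp of 5' UTR and 424 bp outside the annotated exons. It had 27.7 RPKM in gk165 (L2), against 422 RPKM in WT (L2) and 416 RPKM in WT (L3). The third, at 12964674 to 12964946, had 849 RPKM in gk165 (L2), against 780 RPKM in WT (L2) and 766 RPKM in WT (L3). In tba-2 the gk165 (L2) level was thus far below both controls at the 5' end. At the 3' end it did not differ from either control beyond counting error.

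Both major beta tubulins lie on the minus strand of chromosome III. The last exon of tbb-1, at 10740868 to 10741358, held 81.8% of its reads in gk165 (L2), against WT (L2) with 47.4% and WT (L3) with 46.8%. The last exon of tbb-2, at 4015769 to 4016259, held 58.8% in gk165 (L2), against WT (L2) with 28.7% and WT (L3) with 21.8%. This tbb-2 exon overlaps C36E8.4 on the opposite strand, and whether counting used the strand is not given in the sources used here. The last exon of mec-12, at 3131574 to 3132029 on chromosome III, held 86.7% in gk165 (L2), against WT (L2) with 46.3% and WT (L3) with 39.7%, and overlaps Y53G8B.1 on the opposite strand. The remaining members had no overlap with another annotated gene in their listed exons.

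**Figure D1:**
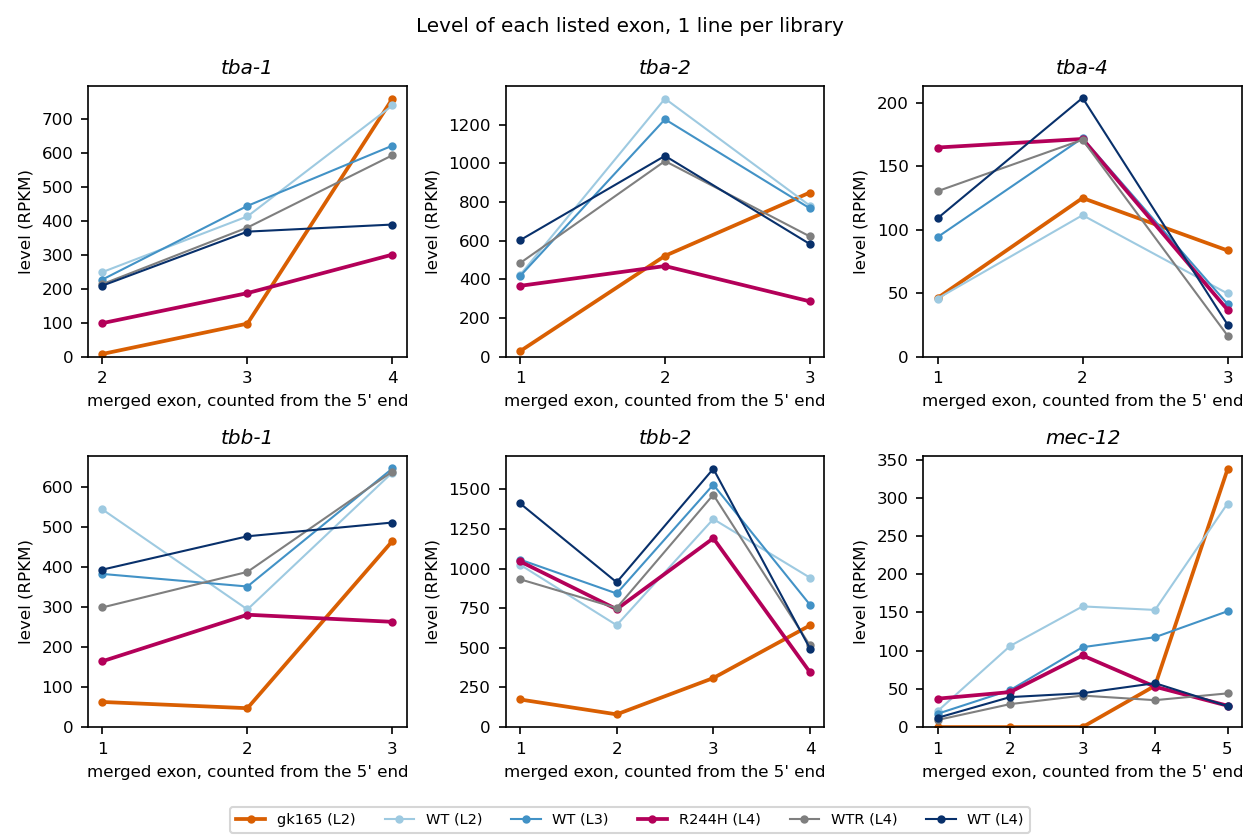
Level in RPKM of each listed merged exon, numbered from the 5' end, for 6 tubulin genes, with 1 line per library. The gk165 (L2) line is highest at the 3' exon in every gene drawn but tba-4, as in tba-1 with 7.8 RPKM at the first listed exon and 761 RPKM at the last, while the R244H (L4) line of tba-1, tba-2 and tbb-1 lies under both L4 controls at every listed exon.

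The main alpha tubulins were tba-2 and tba-1. tba-2 had 149 reads in gk165 (L2), against WT (L2) with 339 and WT (L3) with 775, which are levels of 257, 695 and 663 RPKM in that order of libraries. It had 313 reads and 381 RPKM in R244H (L4), against 693 reads and 632 RPKM in WTR (L4) and 1188 reads and 707 RPKM in WT (L4). The 4 control libraries lay within 632 to 707 RPKM, and both mutants lay below all 4. No neighbours in the order of the controls differed beyond counting error. WTR (L4) did lie below WT (L4), with a log2 ratio of -0.16 (-0.30 to -0.03).

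tba-1 had 158 reads and 377 RPKM in gk165 (L2), against 188 reads and 533 RPKM in WT (L2) and 414 reads and 490 RPKM in WT (L3). In R244H (L4) it had 133 reads and 224 RPKM, against 356 reads and 449 RPKM in WTR (L4) and 429 reads and 353 RPKM in WT (L4). R244H (L4) was the lowest of the 6 libraries, and gk165 (L2) lay among the controls, just above WT (L4).

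tba-4, on the plus strand of chromosome II (10918706 to 10920211), was the third alpha tubulin of most libraries. It had 31 reads and 80.2 RPKM in gk165 (L2), against 23 reads and 70.8 RPKM in WT (L2) and 91 reads and 117 RPKM in WT (L3). It had 83 reads and 152 RPKM in R244H (L4), against 96 reads and 131 RPKM in WTR (L4) and 150 reads and 134 RPKM in WT (L4). R244H (L4) was the highest. No neighbours in the order of its 6 levels differed beyond counting error, but libraries further apart did. WT (L4) to WT (L2) had a log2 ratio of 0.92 (0.28 to 1.62).

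The main beta tubulin was tbb-2. It had 148 reads and 321 RPKM in gk165 (L2), against 374 reads and 963 RPKM in WT (L2) and 968 reads and 1040 RPKM in WT (L3). It had 515 reads and 787 RPKM in R244H (L4), against 789 reads and 905 RPKM in WTR (L4) and 1402 reads and 1049 RPKM in WT (L4). By pooled reads tbb-2 was the most abundant member in every library but gk165 (L2), where tba-1 stood above it. There the intervals overlap, with 320 to 440 RPKM for tba-1 and 271 to 377 RPKM for tbb-2. The order depended on the measure. Without its last exon, which overlaps C36E8.4, tbb-2 had 187 RPKM in gk165 (L2), against 972 RPKM in WT (L2) and 1152 RPKM in WT (L3). That gk165 (L2) level was close to the 186 RPKM of tbb-1. By the mean of the deposited RPKM over exons tba-2 led in gk165 (L2), at 467 RPKM. Over the 3' exon tba-2 led in gk165 (L2) (849 RPKM) and WT (L4) (582 RPKM), and tbb-1 in WTR (L4) (638 RPKM).

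tbb-1 had 77 reads and 186 RPKM in gk165 (L2), against 153 reads and 439 RPKM in WT (L2) and 377 reads and 452 RPKM in WT (L3). It had 152 reads and 259 RPKM in R244H (L4), against 358 reads and 458 RPKM in WTR (L4) and 571 reads and 476 RPKM in WT (L4). As for tba-2, the 4 control libraries did not differ beyond counting error between neighbours (439 to 476 RPKM), and both mutants lay below them.

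The touch receptor neuron pair varied widely, from above tba-4 in WT (L2) to the lowest levels of the members with at least 10 reads in every library. mec-7, on the minus strand of the X chromosome (7774856 to 7776689), had 11.5 reads and 26.7 RPKM in gk165 (L2), against 67.5 reads and 186 RPKM in WT (L2) and 49.5 reads and 57.0 RPKM in WT (L3). Fractions of a read are as recovered from the deposited values. It had 16.5 reads and 27 RPKM in R244H (L4), against 10.5 reads and 12.9 RPKM in WTR (L4) and 22 reads and 17.6 RPKM in WT (L4). The WT (L2) library stood above the other 5.

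mec-12 had 49 reads and 110 RPKM in gk165 (L2), against 67 reads and 179 RPKM in WT (L2) and 97 reads and 108 RPKM in WT (L3). It had 34 reads and 53.9 RPKM in R244H (L4), against 31 reads and 36.8 RPKM in WTR (L4) and 52 reads and 40.3 RPKM in WT (L4). The 3 L4 libraries did not differ beyond counting error between neighbours and were lower than the L2 and L3 libraries.

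The cilium-associated members were near the floor. tba-9, with 2 of its 9 exons listed, had 8 reads in gk165 (L2), against WT (L2) with 1 and WT (L3) with 11, and 3.5 in R244H (L4), against 0 in WTR (L4) and 1 in WT (L4). tbb-4, with 1 of its 7 exons listed, had 0 reads in gk165 (L2), against WT (L2) with 0.5 and WT (L3) with 0. It had 2 reads in R244H (L4), against 1 in WTR (L4) and 0 in WT (L4). A level of tbb-4 was not detectable above the floor in any library, and no fold is given for it.

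**Figure D2:**
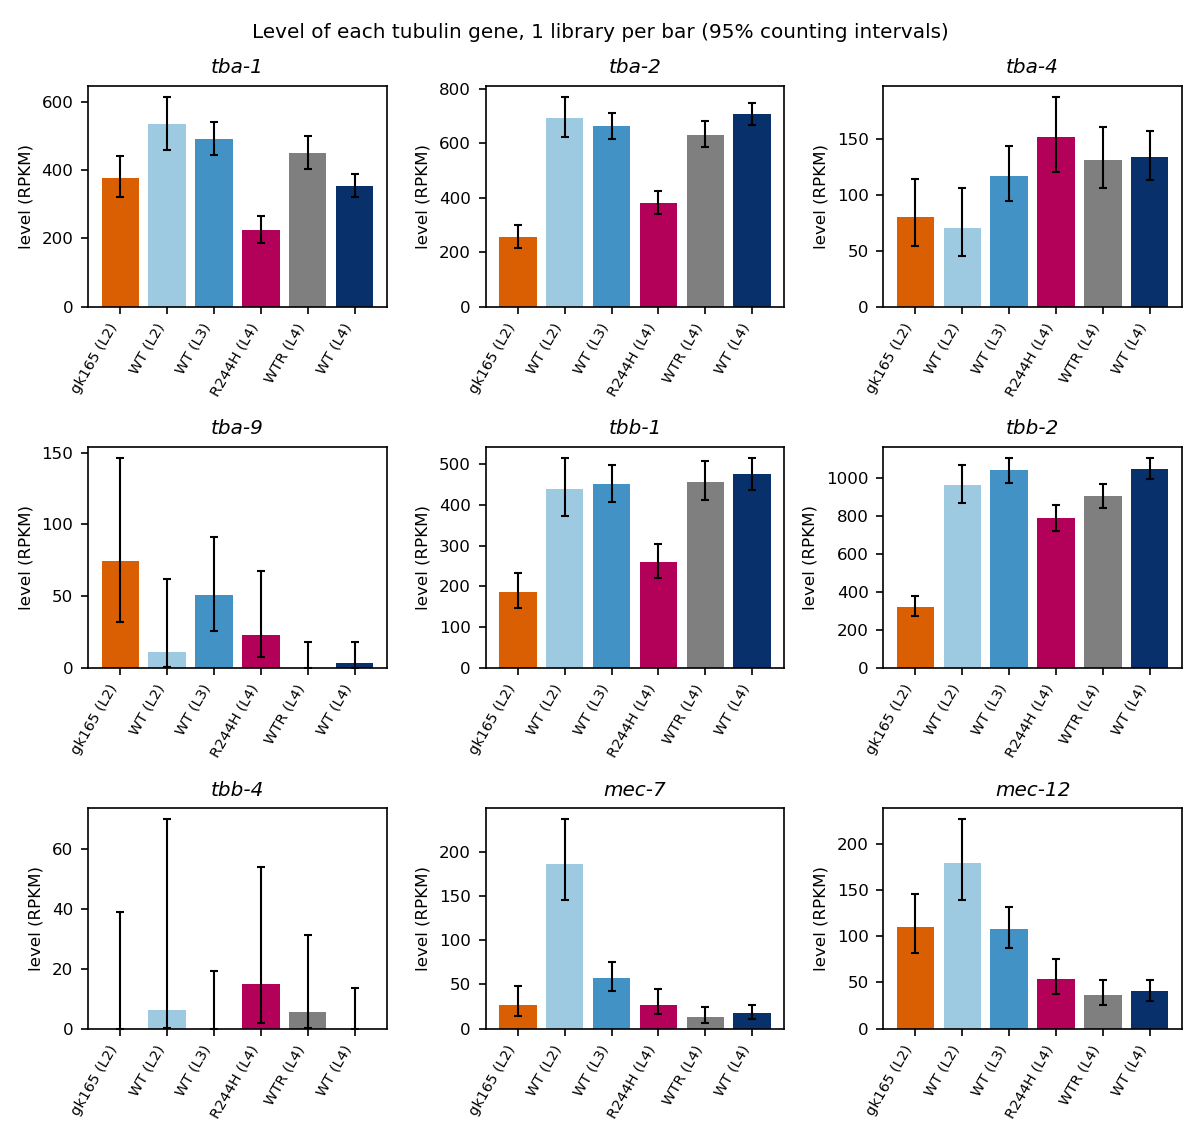
Level of each tubulin gene in RPKM, 1 bar per library, with 95% counting intervals, and each panel with its own scale. Control bars run from 632 to 707 RPKM in tba-2 and from 439 to 476 RPKM in tbb-1, both mutants lie lower, and mec-7 has its highest bar, 186 RPKM, in WT (L2).

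A gene is called lower or higher in gk165 (L2) if its level was 2-fold or more away, in the same direction, from each control, after read numbers of 3 or fewer were raised to 3. Of the 9 members, 8 could be compared, 4 were lower and 0 were higher. Over all 7824 genes compared, 17.9% were lower and 15.1% higher by the same rule. The 8 members had a median log2 ratio of -0.97 with WT (L2) and of -0.82 with WT (L3), against 0.17 and -0.10 over all genes compared.

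The 4 lower members were tbb-2, tba-2, tbb-1 and mec-7. The log2 ratio of tbb-2 was -1.59 to WT (L2), with an interval of -1.87 to -1.31, and -1.70 to WT (L3), with an interval of -1.96 to -1.45. tba-2 had -1.44 (-1.72 to -1.15) to WT (L2) and -1.37 (-1.63 to -1.11) to WT (L3). tbb-1 had -1.24 (-1.65 to -0.84) and -1.28 (-1.65 to -0.92) to the same controls. The 3 main isotypes with the lower levels thus stood at similar ratios to either control, which differ in stage.

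mec-7 differed between the controls, with a log2 ratio of -2.80 (-3.77 to -1.86) to WT (L2) and -1.09 (-2.09 to -0.12) to WT (L3). tba-1 was less far below, at -0.50 (-0.81 to -0.19) and -0.38 (-0.65 to -0.11). tba-4 had 0.18 (-0.64 to 1.03) to WT (L2) and -0.54 (-1.18 to 0.06) to WT (L3). mec-12 had -0.70 (-1.26 to -0.15) to WT (L2) and 0.03 (-0.50 to 0.54) to WT (L3). In gk165 (L2) 42.5 of its 49 reads lay in the exon that overlaps Y53G8B.1. Without that exon its level was 20.4 RPKM in gk165 (L2), against 134 RPKM in WT (L2) and 90.9 RPKM in WT (L3), so its ratios depend on that exon. tba-9, with 8 reads against 1 and 11, had 2.75 (-0.15 to 8.22) and 0.55 (-0.97 to 2.0), which leave its direction undetermined at this depth.

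Over the 3' exon alone, a comparison chosen after seeing the data, 0 members were lower in gk165 (L2) and 1 was higher, while 8.74% of the 5663 genes compared there were lower and 25.2% higher. The higher one was tba-9, with 8 reads, against WT (L2) with 1 and WT (L3) with 5, and both of its intervals include no change (-0.15 to 8.22 and -0.10 to 3.65). tba-2 then had a log2 ratio of 0.12 (-0.45 to 0.67) to WT (L2) and 0.15 (-0.32 to 0.59) to WT (L3), and tba-1 had 0.04 (-0.33 to 0.40) and 0.29 (-0.03 to 0.59). tbb-1 had -0.45 (-0.97 to 0.04) and -0.48 (-0.92 to -0.06), and tbb-2 had -0.56 (-0.99 to -0.14) and -0.27 (-0.64 to 0.10). By this measure tba-2, tbb-1 and tbb-2 were past 2-fold lower over all listed exons and not over the 3' exon alone. These 3' exon ratios are not centred. The median over all genes compared there was itself higher, at 0.49 to WT (L2) and 0.79 to WT (L3), so they do not show unchanged levels.

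mec-12 changed sign against WT (L2) over the 3' exon, with 0.21 (-0.48 to 0.94), and had 1.15 (0.49 to 1.82) to WT (L3), from 42.5 reads against 31 and 38.5. That exon is the one that overlaps Y53G8B.1 on the opposite strand. mec-7 had -1.304 (-2.80 to 0.15) and -0.15 (-1.62 to 1.29). The scale of the whole library also moved, since the median over all genes compared on the 3' exon stood at 0.49 with WT (L2) and at 0.79 with WT (L3), and that of the 8 members was 0.08 and 0.22. The members' median thus lay below that of all genes by either measure, and by a smaller distance on the 3' exon.

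In R244H (L4), 8 members could be compared and 0 were past 2-fold against both controls, while 11.4% of 9668 genes were higher and 21.9% lower. Short of that threshold, tba-1, tba-2, tbb-1 and tbb-2 were all lower than in both controls by more than counting error. tba-1 had a log2 ratio of -1.01 (-1.304 to -0.71) to WTR (L4) and -0.66 (-0.95 to -0.38) to WT (L4). tba-2 had -0.73 (-0.93 to -0.54) to WTR (L4) and -0.89 (-1.08 to -0.71) to WT (L4).

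tbb-1 had -0.82 (-1.104 to -0.54) to WTR (L4) and -0.88 (-1.15 to -0.62) to WT (L4). tbb-2 was the least lowered, with -0.20 (-0.36 to -0.04) to WTR (L4) and -0.41 (-0.56 to -0.27) to WT (L4). The WTR (L4) and WT (L4) libraries differ from each other by -0.21 (-0.34 to -0.09) in tbb-2, by -0.16 (-0.30 to -0.03) in tba-2 and by 0.35 (0.14 to 0.55) in tba-1. The tbb-2 ratio of R244H (L4) to WTR (L4) was thus of the size of the difference between the L4 controls, while the ratios of tba-1, tba-2 and tbb-1 were larger.

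The somatic and neuronal members did not share these lower values. tba-4 had 0.21 (-0.24 to 0.64) to WTR (L4) and 0.18 (-0.23 to 0.57) to WT (L4). mec-12 had 0.55 (-0.20 to 1.299) and 0.42 (-0.25 to 1.07), and mec-7 had 1.07 (-0.14 to 2.28) and 0.62 (-0.35 to 1.64), to the same controls. All of these intervals include no change, and those of mec-7 and mec-12 also include a 2-fold higher level, while those of tba-4 do not. tba-9, with 3.5 reads, had 2.84 (-0.31 to 8.65) to WT (L4). The members' median log2 ratio was 0.0025 to WTR (L4) and -0.12 to WT (L4), against -0.26 and -0.24 over all genes compared. This median counts each gene alike. Summed over the 9 members and scaled to library size, the reads were 3199 CPM in R244H (L4), against 4473 in WTR (L4) and 4771 in WT (L4).

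Over the 3' exon alone the R244H (L4) values held their direction for the 4 main isotypes. tba-2 had 30.5 reads in R244H (L4), against 88.5 in WTR (L4) and 127 in WT (L4), and was then past 2-fold, the only 1 of the 6 members compared, with 13.8% of 6451 genes lower and 10.3% higher. Its ratios were -1.12 (-1.75 to -0.50) and -1.03 (-1.62 to -0.43). tbb-1 had -1.28 (-1.75 to -0.81) to WTR (L4) and -0.96 (-1.42 to -0.50) to WT (L4). tba-1 had -0.98 (-1.37 to -0.60) and -0.37 (-0.77 to 0.01), and tbb-2 had -0.57 (-1.01 to -0.13) and -0.52 (-0.93 to -0.10).

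**Figure D3:**
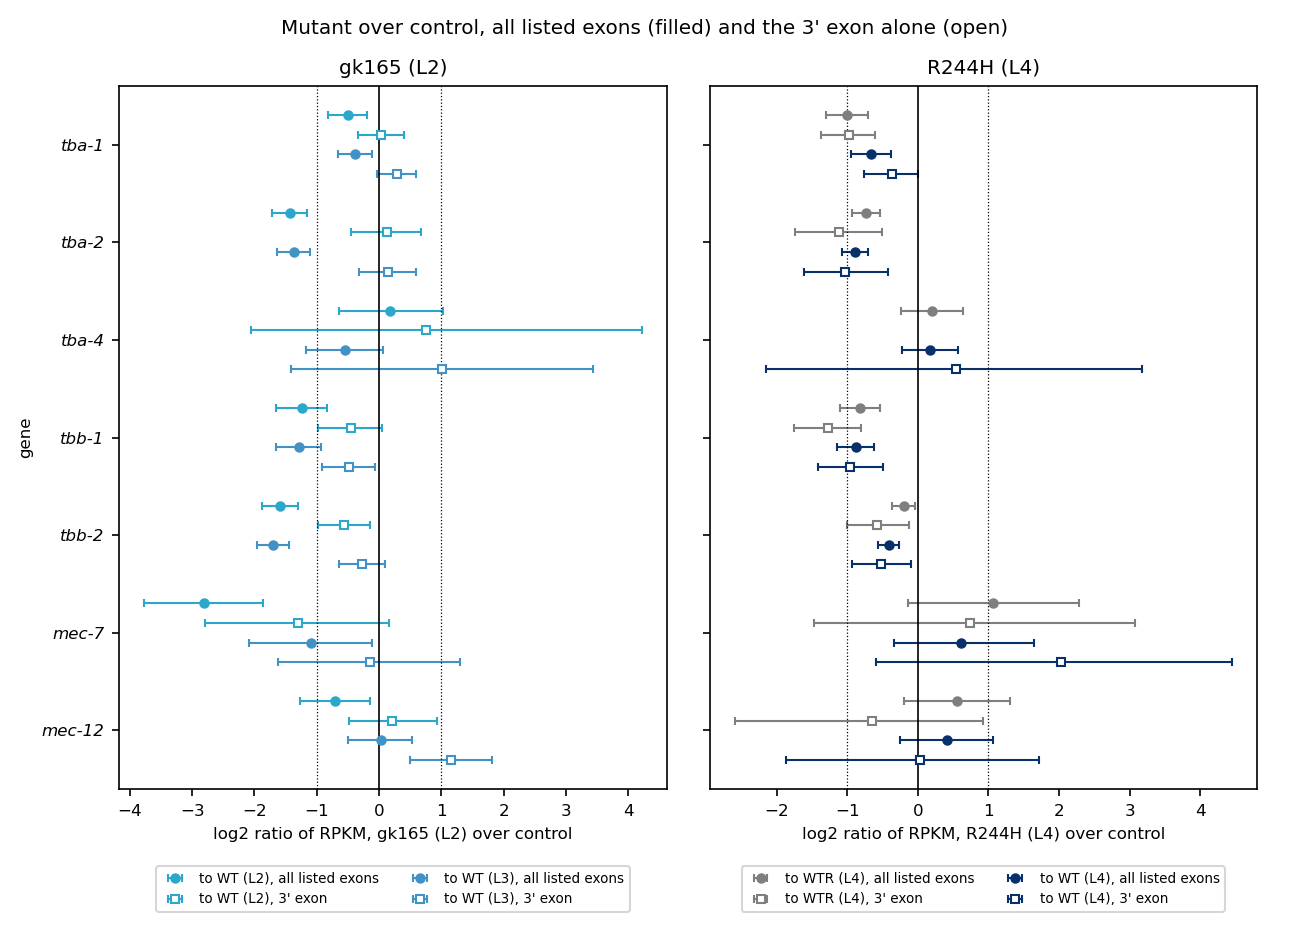
Log2 ratio of RPKM of each mutant to each of its controls for 7 tubulin genes, with 95% counting intervals, over all listed exons (filled) and the 3' exon alone (open); dotted lines mark 2-fold. In gk165 (L2) the filled points of tba-2, tbb-1 and tbb-2 lie beyond -1 and the open points inside it, from -0.56 for tbb-2 to WT (L2) up to 0.15 for tba-2 to WT (L3), while in R244H (L4) filled and open points of these genes lie on the same side.

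Markers of the germline differed strongly in the same R244H (L4) library. All 10 germline and oocyte markers were past 2-fold lower against both controls, with a summed level of 324 CPM (reads scaled to library size) in R244H (L4), against 3679 in WTR (L4) and 2702 in WT (L4), and 0 of them without a read. gld-1, a translational repressor of the germline, had 13 reads in R244H (L4), against 288 in WTR (L4) and 455 in WT (L4). puf-5, an oocyte RNA-binding protein, had 1 read in R244H (L4), against 158 and 85. All 7 sperm markers were lower, at 5.11 CPM in R244H (L4), against 1393 in WTR (L4) and 1199 in WT (L4), with 5 of the 7 at 0 reads in R244H (L4). Over the 3' exon 8 of the 10 germline and oocyte markers and 4 of the 7 sperm markers were lower, beside 13.8% of all genes.

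The 12 neuron markers summed to 1282 CPM in R244H (L4), against 561 in WTR (L4) and 636 in WT (L4). Of them 3 were past 2-fold higher and 0 lower, beside 11.4% and 21.9% of all genes. The 3 were led by ida-1 (97 reads, against 45 in WTR (L4) and 74 in WT (L4)) and sbt-1 (35 reads, against 14 and 28), both of dense-core vesicles and neuropeptide processing. Over the 3' exon 3 of 8 neuron markers were higher and 0 lower, beside 10.3% and 13.8% of all genes. The touch receptor neuron markers summed to 62.6 CPM in R244H (L4), against 49.8 in WTR (L4) and 51.9 in WT (L4). Of 3 of them compared, 0 were past 2-fold, beside 11.4% higher and 21.9% lower of all genes. The part of the germline and neuron content in the tubulin values was not tested. In whole-worm RNA, fewer cells of a type and less RNA per cell cannot be told apart.

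The germline markers summed to 152 CPM in gk165 (L2), against 94.7 CPM in WT (L2) and 228 CPM in WT (L3), with 3 of 10 that could be compared and 0 past 2-fold. The neuron markers summed to 1596 CPM in gk165 (L2), against WT (L2) with 1706 and WT (L3) with 1764. Of 11 compared, 2 were past 2-fold lower and 1 higher, near the 17.9% and 15.1% of all genes. Over the 3' exon 0 were lower and 2 higher of 8, beside 8.74% and 25.2% of all genes compared there. The touch receptor neuron markers, which leave out mec-7 and mec-12, summed to 136 in gk165 (L2), against WT (L2) with 211 and WT (L3) with 183, from 8 genes. Of these, gk165 (L2) held 3 above the floor, WT (L2) held 2 and WT (L3) held 7, and the part of such markers in the mec-7 and mec-12 values was not tested. The body wall muscle markers summed to 5518 in gk165 (L2), against WT (L2) with 11897 and WT (L3) with 21277. Of these, 4 of 8 were past 2-fold lower, beside 17.9% of all genes, and 2 of 8 over the 3' exon, beside 8.74%.

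Between wild-type stages, mec-7 and mec-12 differed most among the members with at least 10 reads in every library. tba-2 had 695, 663 and 707 RPKM in WT (L2), WT (L3) and WT (L4), tbb-1 had 439, 452 and 476 RPKM, and tbb-2 had 963, 1040 and 1049 RPKM. The log2 ratios of WT (L4) to WT (L2) were 0.03 (-0.15 to 0.20) for tba-2, 0.12 (-0.14 to 0.38) for tbb-1 and 0.12 (-0.04 to 0.29) for tbb-2. tba-1 was lower, with 533, 490 and 353 RPKM and a log2 ratio of -0.59 (-0.84 to -0.34), and tba-4 was higher, with 70.8, 117 and 134 RPKM and 0.92 (0.28 to 1.62). Scaled by the totals of recovered reads instead, the ratios of tba-2, tbb-1 and tbb-2 turned negative, at -0.39, -0.30 and -0.29.

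The neuronal pair was lower at each later stage. mec-7 had 186, 57.0 and 17.6 RPKM in WT (L2), WT (L3) and WT (L4), with log2 ratios of -1.71 (-2.26 to -1.16) for WT (L3) to WT (L2), -1.69 (-2.50 to -0.96) for WT (L4) to WT (L3) and -3.40 (-4.18 to -2.70) for WT (L4) to WT (L2). mec-12 had 179, 108 and 40.3 RPKM and ratios of -0.73 (-1.19 to -0.26), -1.42 (-1.94 to -0.92) and -2.15 (-2.70 to -1.60). These 2 were the only members past 2-fold between WT (L4) and WT (L2), both lower, while 24.4% of 10326 genes were higher and 18.2% lower. tba-9 had 1, 11 and 1 reads in these stages.

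Both were also lower over the 3' exon, with a log2 ratio of WT (L4) to WT (L2) of -4.22 (-6.45 to -2.16) for mec-7, from 2.5 reads against 13.5, and of -3.42 (-4.61 to -2.35) for mec-12. tba-1 then had -0.93 (-1.27 to -0.59) and tbb-2 -0.93 (-1.28 to -0.58), and from WT (L3) to WT (L4) tba-2 had -0.40 (-0.78 to -0.03) and tbb-1 -0.34 (-0.64 to -0.04). The small differences of the 3 main isotypes between stages therefore depended on the exons used and on the scaling. The neuron markers summed to 1706, 1764 and 636 CPM in WT (L2), WT (L3) and WT (L4), the touch receptor neuron markers to 211, 183 and 51.9, and the germline and oocyte markers to 94.7, 228 and 2702. The part of these differences in the tubulin values was not tested.

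The share of each isotype within a library does not depend on the scaling between libraries. tba-2 made up 27.1% of the alpha tubulin level in gk165 (L2), against WT (L2) with 45.1% and WT (L3) with 44.4%, and tba-1 made up 39.8%, against 34.6% and 32.8%. tba-1 therefore stood above tba-2 only in gk165 (L2), where the ratio of tba-2 to tba-1 was 0.682, against WT (L2) with 1.303 and WT (L3) with 1.35. Over the 3' exon that ratio was 1.12 in gk165 (L2), against 1.05 and 1.23, so the switch was not seen there. Nor was it seen with the mean of the deposited RPKM over exons, where tba-2 made up 44.2% and tba-1 27.4% in gk165 (L2).

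In R244H (L4) tba-4 made up 17.7% of the alpha tubulin level, against 10.5% in WTR (L4) and 10.7% in WT (L4). As a share of alpha tubulin reads it was 14.5% with an interval of 11.7 to 17.6% in R244H (L4), against 8.14% (6.64 to 9.84%) in WTR (L4) and 8.19% (6.98 to 9.54%) in WT (L4). The interval of R244H (L4) did not overlap those of the controls. tbb-1 made up 22.8% of the beta tubulin level in R244H (L4), against 32.2% in WTR (L4) and 30.3% in WT (L4), and the ratio of tbb-2 to tbb-1 was 3.04, against 1.98 and 2.20.

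The neuronal isotypes were a larger share in young larvae. mec-12 was 11.6% of the alpha level in gk165 (L2), against WT (L2) with 11.6% and WT (L3) with 7.23%, and 6.28% in R244H (L4), against 2.93% in WTR (L4) and 3.21% in WT (L4). mec-7 was 4.797% of the beta level in gk165 (L2), against WT (L2) with 11.3% and WT (L3) with 3.57%, and 2.38% in R244H (L4), against 0.908% in WTR (L4) and 1.12% in WT (L4). Without its last exon, which overlaps Y53G8B.1, mec-12 was 2.40% in gk165 (L2), against WT (L2) with 8.90% and WT (L3) with 6.15%. By reads, the R244H (L4) share of mec-12, 5.92% (4.13 to 8.17%), lay above that of WTR (L4), 2.63% (1.79 to 3.71%), and of WT (L4), 2.84% (2.13 to 3.71%). The shares of mec-7 by reads were 2.33% (1.40 to 3.81%) in R244H (L4), 0.878% (0.460 to 1.64%) in WTR (L4) and 1.08% (0.677 to 1.63%) in WT (L4), and the first overlaps both others.

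Summed over each family, the ratio of alpha to beta level was 1.70 in gk165 (L2), against WT (L2) with 0.932 and WT (L3) with 0.935. It was 0.756 in R244H (L4), against 0.885 in WTR (L4) and 0.801 in WT (L4). The gk165 (L2) ratio stayed high over the 3' exon, at 1.89, against 1.02 and 1.08. Of the gk165 (L2) alpha level, 7.87% came from the 8 reads of tba-9.

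**Figure D4:**
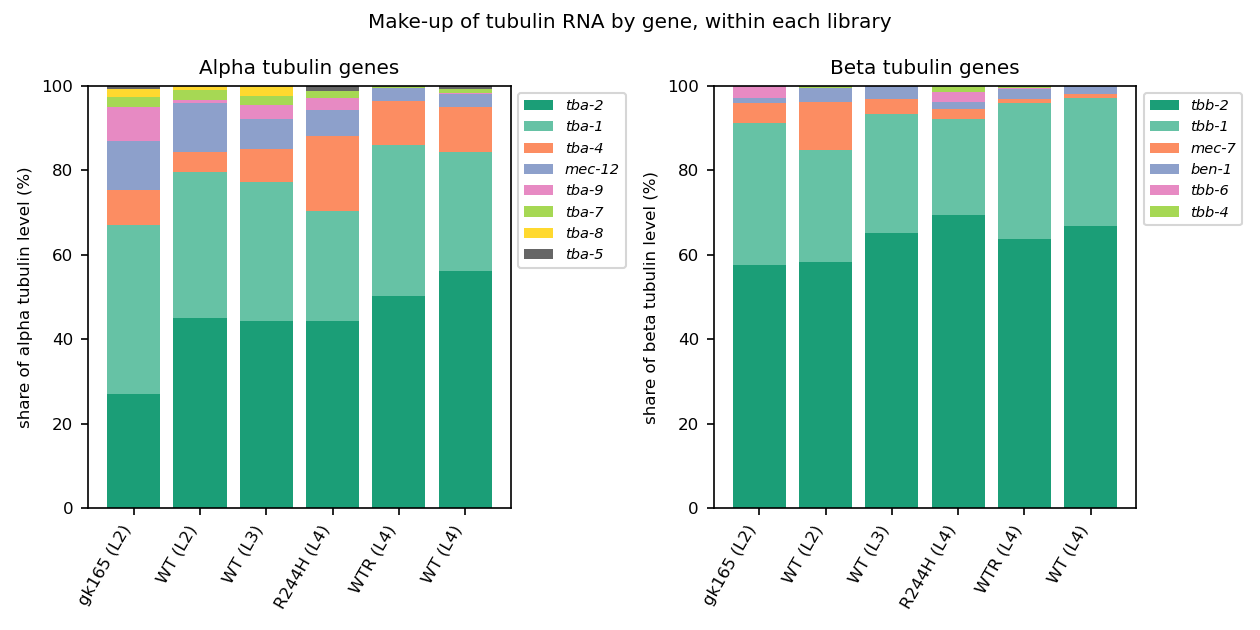
Share in percent of the summed alpha (left) and beta (right) tubulin level taken by each gene of the family, 1 bar per library, from pooled reads. tba-2 is smallest in gk165 (L2) at 27.1%, tba-4 is largest in R244H (L4) at 17.7%, and mec-12 and mec-7 reach 11.6% and 11.3% in WT (L2).

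tba-2 and tbb-1, which lie on different chromosomes, had the most similar profiles of all members. Among 957 genes with at least 20 reads in every library, each was the other's nearest gene, with a root mean square difference of 0.07 on the log2 scale over the 6 libraries after centring. The next nearest were cct-6, a subunit of the chaperonin that folds tubulin and actin, for tba-2 (0.12) and the proteasome gene pas-6 for tbb-1 (0.10). For tbb-2 they were unc-32 and trap-4 (both 0.10), for tba-1 grl-4 (0.09) and icd-2 (0.12), for tba-4 asp-3 (0.11) and mdt-15 (0.14), and for mec-12 col-34 (0.23) and casy-1 (0.28). All genes share the same 6 libraries and the 3' weighting of gk165 (L2), so the values are a description.

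The alpha and beta tubulins outside the named set were scarce. Of 6 listed, 5 are in the table, and 2 could be compared in gk165 (L2) and 3 in R244H (L4). ben-1, the beta tubulin that confers sensitivity to benzimidazoles, had 4 reads in gk165 (L2), against WT (L2) with 27 and WT (L3) with 54, with log2 ratios of -3.005 (-4.98 to -1.48) and -2.74 (-4.67 to -1.305). It was also lower over the 3' exon, with 3 reads in gk165 (L2), against 13 and 28.5. tbb-6 had 7.5 reads in R244H (L4), against 2 in WTR (L4) and 0 in WT (L4). With the 0 reads of WT (L4) raised to 3, the R244H (L4) level was 5.11-fold higher, a value that leaves out counting error. The log2 ratio of tbb-6 in R244H (L4) to WTR (L4) was 2.32 (0.09 to 5.69). Its listed exons had 0 reads in WT (L2), WT (L3) and WT (L4). They are in the table only through gk165 (L2), R244H (L4) and, for the third exon, WTR (L4). The higher tbb-6 value is thus not independent of that selection and is a description only.

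Genes that nucleate, fold, modify or use microtubules were counted by the same rule, with the lists chosen with earlier results known. Of 13 genes of the gamma tubulin complex and centrosome, 11 were lower and 0 higher in R244H (L4), against a background of 21.9% lower, with medians of -1.73 to WTR (L4) and -1.35 to WT (L4). air-1, the Aurora A kinase of the centrosome, had 2 reads in R244H (L4), against 56 in WTR (L4) and 61.5 in WT (L4), and the mitotic kinase plk-1 had 6, against 58 and 81. Over the 3' exon 5 of the 9 that could be compared were lower, beside 13.8% of all genes. In gk165 (L2) 2 of 9 were lower, zyg-9 (5 reads, against 18 and 39) and spd-5 (4 reads, against 8 and 32), a share near the 17.9% of all genes, and over the 3' exon 0 of 8 were lower.

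The tubulin folding genes, which include the chaperonin and prefoldin subunits and the tubulin cofactors, were 7 lower and 1 higher of 20 in R244H (L4). The shares over all genes were 21.9% and 11.4%. The lower ones were led by the cofactors tbcd-1 (8 reads, against 51 in WTR (L4) and 47 in WT (L4)) and tbce-1 (2 reads, against 14 and 23.5), and the higher one was coel-1, a relative of tubulin cofactor E, with 9.5 reads, against 3.5 and 4. In gk165 (L2) 7 were lower and 2 higher of 18, beside 17.9% and 15.1% of all genes. The lower were led by the chaperonin subunits cct-8 (17 reads, against WT (L2) with 61 and WT (L3) with 216) and cct-7 (43.5 reads, against 137.5 and 372.5). The higher were the prefoldin subunit pfd-1 (139 reads, against 13 and 50) and coel-1 (21 reads, against 5 and 0). Over the 3' exon the gk165 (L2) counts were 5 lower and 5 higher of 16, beside 8.74% and 25.2% of all genes compared there. The R244H (L4) counts over the 3' exon were 4 lower and 0 higher of 16, beside 13.8% and 10.3%.

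Of the tubulin modification enzymes, 1 of 6 was lower in R244H (L4), the deglutamylase ccpp-1 (6.5 reads, against 33 in WTR (L4) and 40.5 in WT (L4)). In gk165 (L2) 1 of 6 was higher, the acetyltransferase atat-2 (18 reads, against WT (L2) with 6 and WT (L3) with 2), and 1 of 4 over the 3' exon. Over all genes 21.9% were lower in R244H (L4), and 15.1% were higher in gk165 (L2), or 25.2% over the 3' exon. In R244H (L4) 1 of 5 modification enzymes was higher and 0 lower over the 3' exon, beside 10.3% and 13.8% of all genes. Of the kinesin motors 9 of 20 were lower in R244H (L4) and 0 higher, led by klp-18 (3 reads, against 47 and 85) and klp-15 (3 reads, against 58 and 70), both motors of the oocyte meiotic spindle. In gk165 (L2) 3 of 14 kinesin genes were lower, led by klc-2 (9 reads, against 20.5 and 51.5) and unc-116 (24 reads, against 44 and 106), the light and heavy chains of kinesin-1, against 17.9% of all genes. Over the 3' exon 2 kinesin genes were lower and 2 higher of 7 in gk165 (L2), beside 8.74% and 25.2% of all genes. In R244H (L4) 3 were lower of 13 there, beside 13.8%.

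The dynein and dynactin genes were 3 lower and 0 higher of 16 in R244H (L4), a share below the 21.9% of all genes, led by nud-1 (10 reads, against 47 in WTR (L4) and 57 in WT (L4)) and dnc-3 (1 read, against 9 and 30). Over the 3' exon 4 of 12 were lower and 0 higher in R244H (L4), a share above the 13.8% of all genes compared there. The side of the background thus depended on the exons used. In gk165 (L2) they were 3 lower and 3 higher of 16, against 17.9% and 15.1% of all genes. Over the 3' exon they were 0 lower and 3 higher of 12, against 8.74% and 25.2%. Over all listed exons dhc-1, the cytoplasmic dynein heavy chain, had 18 reads in gk165 (L2), against WT (L2) with 65 and WT (L3) with 234. The light chain dlc-2 had 19, against 4 and 10. The other named genes were dlc-1, lower with 35 reads against 69 and 179, and dyrb-1, higher with 23 reads against 7 and 20.

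Of the microtubule binding and severing genes 10 were lower and 1 higher of 26 in R244H (L4), beside 21.9% and 11.4% of all genes. maph-1.2 had 2 reads in R244H (L4), against 90 in WTR (L4) and 113 in WT (L4), and maph-1.3 had 4, against 41 and 70, both relatives of microtubule-associated protein 1. The higher one was ptrn-1, the minus-end binding patronin, with 15 reads, against 10 and 14.5. In gk165 (L2) 6 were lower and 1 higher of 18, beside 17.9% and 15.1% of all genes. The lower included cls-3 (3 reads, against 9.5 and 35) and maph-1.1 (20 reads, against 58.5 and 143.5). The higher one was stn-1 (47 reads, against 10.8 and 23.2). It is a syntrophin rather than a microtubule binding or severing protein, and was counted as listed. The counts over the 3' exon were 1 lower and 2 higher of 11 in gk165 (L2), beside 8.74% and 25.2% of all genes. They were 3 lower and 0 higher of 20 in R244H (L4), beside 13.8% and 10.3%. Of 14 cilium genes in the table, 1 could be compared in R244H (L4) and 3 in gk165 (L2), with 0 past 2-fold in either.

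**Figure D5:**
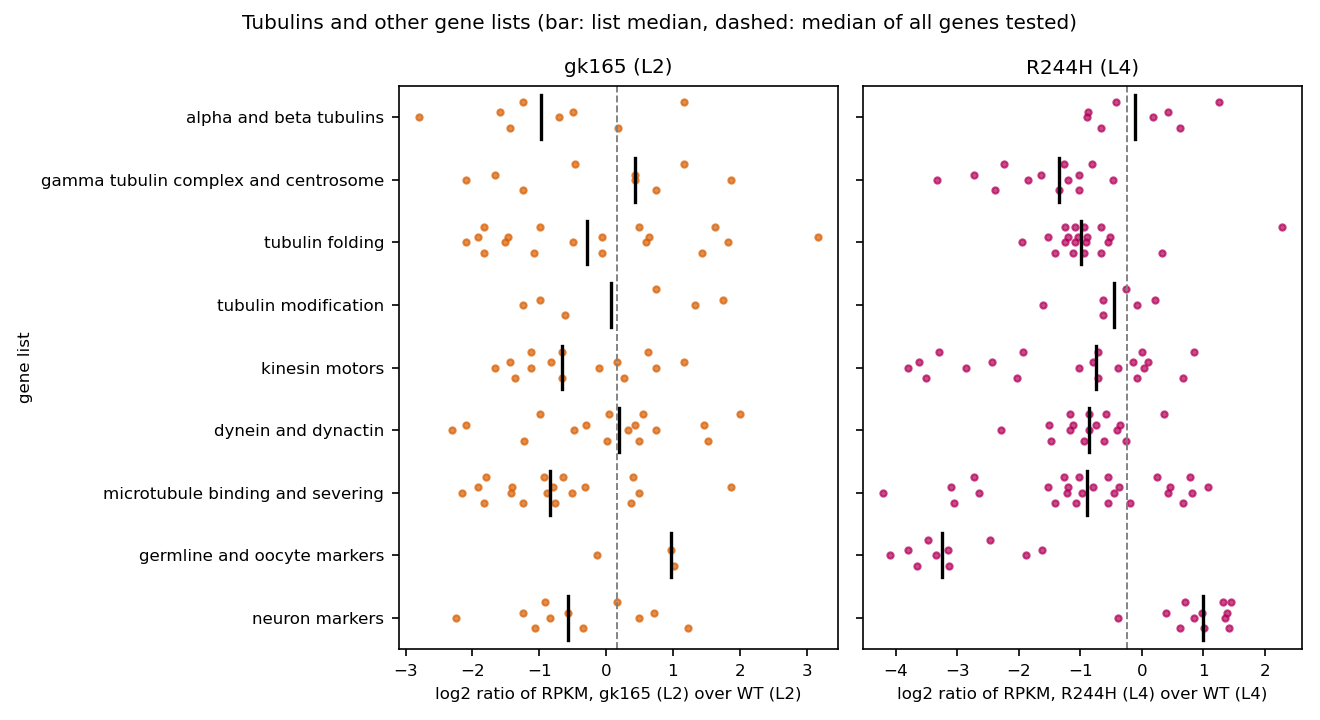
Log2 ratio of RPKM to the first wild-type control for each gene that could be compared in 9 lists, 1 point per gene, with read numbers of 3 or fewer raised to 3. In R244H (L4) the alpha and beta tubulins have a median of -0.12, above those of the gamma tubulin and centrosome list (-1.35) and the germline list (-3.25). Below that median lie tba-1, tba-2, tbb-1 and tbb-2, from -0.89 for tba-2 to -0.41 for tbb-2. In gk165 (L2) the median of the alpha and beta tubulins is -0.97.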

How the data were processed

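RNA-seq was done on whole worms of 6 conditions, 1 library each. Per the methods and the submitters' processing notes, the authors trimmed reads (Trim Galore 0.4.1, cutadapt 1.14), aligned them to WBcel235 (Ensembl release 94) with TopHat2 2.1.0, counted them on merged exons with featureCounts and normalized them with edgeR 3.26.8. The deposited values are log2 RPKM per merged exon. An offset of 0.54 CPM (0.25 reads at the mean library size) is included, and each listed exon reaches 2 CPM in 2 or more libraries. The filter, the offset and the use of strand are not given in the sources used here.

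Reads were recovered from the steps in the values: 100% of non-zero values fell on hundredths of a read (to rounding), 54.0% on whole reads. Reads were pooled over listed exons and scaled by the authors' effective library sizes, which run from 232363 to 799673. No pseudocount was added, and read numbers of 3 or fewer were raised to 3 for calls and medians only. Ratios carry Clopper-Pearson intervals. With 1 library per group, no model across replicates could be fitted. Tubulins are close paralogs, and the treatment of reads that map to several genes is not given, so reads could be split or misplaced between them. Overlaps come from Ensembl release 115 of the same assembly. Members and lists were chosen with earlier results of these data known. The text names all members, up to 2 higher and 2 lower genes per list and mutant ranked on whichever control gave the lesser change (markers only where they bear on a member), and the 2 genes nearest in profile to each member with at least 20 reads in every library. The alternatives were a mean of the deposited RPKM over exons with a pseudocount of 1 or 0.1, the highest exon only, centring on the median, a 3-fold threshold, the first control only, an interval that leaves out no change, a floor of 10 reads, and for shares the exons without another gene. The 3' exon only and the totals of recovered reads were added after seeing the data. Scripts were tested on simulated data. Calculations ran in Python 3.11.15 with scipy 1.17.1, pandas 2.3.3, numpy 2.4.6 and, for plots, matplotlib 3.10.9.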

Additional observations from a re-analysis of the deposited data

How the results depend on the processing

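No paired analysis was possible because each condition has 1 library. The count of 4 members past 2-fold in gk165 (L2) was 3 to 5 under the other settings except 1 with a 3-fold threshold (tbb-2) and 1 with the 3' exon only (tba-9, higher). The count of 0 members in R244H (L4) became 1 with the mean of the deposited RPKM at a pseudocount of 1 or 0.1 and with the first control only (tba-9, higher), and 1 with the highest exon or the 3' exon only (tba-2, lower). Of all genes, 2582 were past 2-fold in gk165 (L2), against 1581 with the highest exon only, 1280 with a 3-fold threshold and 1116 with a floor of 10 reads. In R244H (L4) there were 3222, against 1497 with the highest exon only, 1505 with a 3-fold threshold, 1459 with a floor of 10 reads and 1554 with the 3' exon only. Fewer genes could be compared with the highest exon, the floor of 10 reads and the 3' exon. The higher share of the gk165 (L2) calls was 45.6%, against 69.7% with the highest exon only and 74.2% with the 3' exon only. In R244H (L4) it was 34.3%, against 46.0% with the highest exon only.

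With the 3' exon only, log2 ratios reversed for tba-1 in gk165 (L2) (0.038 to WT (L2), 0.29 to WT (L3)) and mec-12 in gk165 (L2) to WT (L2) (0.21), which are the same exons and values with the highest exon only, and for tba-2 in gk165 (L2) (0.12 and 0.15). They also reversed for WTR (L4) to WT (L4) in tba-2 (0.094) and tbb-2 (0.056), and for tba-4 between WT stages (-0.85 for L3 to L2, -1.56 for L4 to L2), where the exon held 4 reads or fewer and numbers of 3 or fewer were raised to 3. The cause was not tested beyond the exons used. Under centring or totals of recovered reads no ratio whose interval leaves out no change turned its sign, but ratios near 0 did. With the totals, WT (L4) to WT (L2) became -0.39 in tba-2, -0.30 in tbb-1 and -0.29 in tbb-2, and gk165 (L2) to WT (L2) became -0.13 in tba-4; with centring, WT (L3) to WT (L2) became -0.16 in tbb-2. The totals shift every ratio of gk165 (L2), WT (L3) and WT (L4) to WT (L2) by -0.32, -0.36 and -0.42, and centring shifts WT (L3) to WT (L2) by -0.27. At this depth tbb-4 could not be compared, and the intervals of tba-9 in both mutants include no change.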
